A study of Homo sapiens with 6 samples.

Results

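Prostaglandins are short-lived lipid signals made from arachidonic acid, and the genes described here encode the enzymes that make and break down prostaglandin E2 and the receptors that sense it. The 10 members are the cyclooxygenase genes PTGS1 and PTGS2, the prostaglandin E synthase genes PTGES, PTGES2 and PTGES3, the receptor genes PTGER2 and PTGER4, the reductase genes PTGR1 and PTGR2, and HPGD, which encodes 15-hydroxyprostaglandin dehydrogenase. They were chosen by name, as the probe sets that the platform annotation gives 1 of these symbols, but with the PTGS2 and PTGR2 values of the treated Twist cells already known. All that follows on the members is therefore a description, with no test. The 10 genes, out of 19775 on the array, were read by 21 probe sets.

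Phospholipases free arachidonic acid from membranes, and a cyclooxygenase then turns it into prostaglandin H2. PTGS1 is the cyclooxygenase that many cells make all the time, whereas PTGS2 is switched on by cytokines, growth factors and stress. A terminal synthase makes prostaglandin E2, which acts on receptors that raise cyclic AMP, and HPGD followed by the reductases inactivates it. In mammary epithelium and other epithelia this pathway is known for its part in inflammation and in tumour growth.

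RNA came from HMLE, an established immortalised cell line of human breast epithelium, grown with insulin, hydrocortisone and epidermal growth factor. The control line carried a pBabe retrovirus with a GFP hairpin. The Twist line carried a pBabe retrovirus with Twist, a transcription factor that drives epithelial-mesenchymal transition (EMT). The labels do not say whether a line was 1 clone or a pool. Each line had 1 Affymetrix U133 Plus array with the solvent DMSO, 1 with Cmp302 titled 5 µM and 1 titled 10 µM, where Cmp302 is a small molecule known by its code name. The treatment protocol gives 6 h for all arrays, but the source names and treatment tags of the Cmp302 arrays give 2 µM for 4 h and 2 µM for 8 h, so the step between the levels may be one of dose or of time and the titles serve here as names only.

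Values are the deposited signals, judged to be log2 and shifted slightly per array (by -0.03 to 0.01), so a difference of 1 is a 2-fold difference. A signal floor was set at 3.71, the median of all values, below which probe sets are treated as not measured. Each gene was read by its brightest probe set, and past 2-fold means a difference of at least 1 with at least 1 of the arrays compared above the floor. With 1 array per group no value has a replicate error, the number of arrays limits the precision, and the order of nearby levels is not settled. Probe sets of the same gene can differ, and their range is given for members and for some of the other genes, whose counts rest on the brightest probe set alone. As a yardstick, the middle 95% of all measured genes differed from DMSO by -0.50 to 0.41 at 5 µM and by -0.67 to 0.54 at 10 µM in the control line, and by -1.20 to 1.15 and -1.51 to 1.49 in the Twist line.

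Of the 21 probe sets, 14 lay above the floor on all 6 arrays and 1, for PTGER4, on none. PTGES2, PTGES3, PTGR2 and PTGER2 had 1 probe set each. TWIST1 itself read 10.48 to 10.70 on the control-line arrays and 11.35 to 11.96 on the Twist-line arrays. The epithelial markers EPCAM, CDH1 and KRT5 were above the floor on the control-line arrays and below it on the Twist-line arrays, and KRT14 was at 13.84 and 3.96 under DMSO. All 4 mesenchymal markers checked (VIM, ZEB1, ZEB2 and CDH2) were past 2-fold higher in the Twist line under DMSO. The 4 fibroblast markers COL1A1, COL1A2, PDGFRB and DCN were past 2-fold higher there too, and the log2 of their summed signal was 8.80 to 11.32 in the control line but 13.36 to 14.02 in the Twist line. On the control line, COL1A1 went from 8.70 with DMSO to 11.30 at 10 µM. Of 5 blood and mast cell markers, PTPRC, LYZ and TPSAB1 were below the floor on all arrays. CD14 was above it at 4.81, 4.46 and 4.35 on the control-line arrays and at 3.99 on the Twist DMSO array, and CPA3 at 3.76 on the latter alone. The endothelial markers VWF, CDH5 and TEK and the fat markers ADIPOQ, PLIN1 and LPL were below the floor on all arrays. PECAM1 and FABP4, by contrast, were higher in the Twist line under DMSO by 3.59 and 2.71. In bulk RNA a larger share of cells that express a gene and a higher level per cell cannot be told apart, and the part of these markers in the results was not tested.

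The promoters of PTGS2, PTGR2 and PTGER2 are shown because these members had the compound-linked differences described further on that were measured above the floor at both ends, in the case of PTGS2 only just. They are RefSeq windows on GRCh38.p14 from 250 bases before to 50 after the annotated start, written 5′ to 3′ along the gene. All 10 members were found in the promoter table. Capitals mark matches on either strand to the cyclic AMP response element (CRE) half-site CGTCA and the TATA box TATAAA. An ATF-C/EBP composite site, TGATGNAA, and an NF-kB consensus, GGGRNWYYCC, were also searched for. Here R is A or G, W is A or T, Y is C or T and N is any base. Exact matches to both are absent from these 3 windows, and a site that departs from these letters would be missed. PTGS2 lies on the minus strand of chromosome 1 (gene body chr1:186671791-186680423) with its window at chr1:186680374-186680673, PTGR2 (chr14:73851831-73885726) on the plus strand of chromosome 14 with its window at chr14:73851581-73851880, and PTGER2 (chr14:52314312-52328598) on the plus strand of the same chromosome with its window at chr14:52314062-52314361.
PTGS2: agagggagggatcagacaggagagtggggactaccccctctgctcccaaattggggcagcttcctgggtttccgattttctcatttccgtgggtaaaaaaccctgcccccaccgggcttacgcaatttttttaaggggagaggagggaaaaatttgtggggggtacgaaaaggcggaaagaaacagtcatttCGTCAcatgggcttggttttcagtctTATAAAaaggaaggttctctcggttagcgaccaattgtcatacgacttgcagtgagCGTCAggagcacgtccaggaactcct
PTGR2: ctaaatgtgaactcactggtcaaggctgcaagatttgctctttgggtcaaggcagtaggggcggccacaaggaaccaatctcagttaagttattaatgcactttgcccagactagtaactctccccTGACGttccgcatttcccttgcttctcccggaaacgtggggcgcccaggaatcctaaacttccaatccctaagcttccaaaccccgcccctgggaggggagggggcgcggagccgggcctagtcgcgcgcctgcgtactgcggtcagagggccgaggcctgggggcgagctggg
PTGER2: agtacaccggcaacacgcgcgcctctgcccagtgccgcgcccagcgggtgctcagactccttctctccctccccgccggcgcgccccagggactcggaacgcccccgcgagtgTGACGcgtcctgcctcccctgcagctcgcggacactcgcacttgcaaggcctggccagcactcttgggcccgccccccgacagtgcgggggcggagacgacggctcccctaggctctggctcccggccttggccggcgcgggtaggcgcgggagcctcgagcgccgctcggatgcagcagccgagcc

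In the PTGS2 window CRE half-sites lay at positions -58 and 24 and the TATA box at position -32, counted from the start, and none of the matches overlapped. In PTGR2 the half-site lay on the opposite strand at position -124, and in PTGER2 likewise at position -137. The half-site was in the windows of 5 of the 10 members, PTGES3 and HPGD being the others, against 24.6% of 35116 promoter windows of the same length, and the TATA box in those of PTGS1 and PTGS2, against 11.5%. Only 1 member window, that of PTGER4, held an exact match to the NF-kB consensus (5.91% of all windows), and 0 held the composite site (3.62%). Other motifs searched for are not marked above. The GC box GGGCGG was in 8 member windows (45.0% of all windows), the CCAAT box in 3 (34.6%) and the AP-1 site TGANTCA in 0 (7.71%). A match describes letters in a window and says nothing of binding. The windows also differed in base composition, with 50.7% G and C in PTGS2, 59.3% in PTGR2 and 74.7% in PTGER2, against a median of 58.7% over all windows.

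The first comparison asked how the pathway stood in the Twist line against the control line. Under DMSO 5 of the 10 members were past 2-fold, 3 higher and 2 lower, where 25.4% of 12510 measured genes were. At 5 µM 5 members were past 2-fold, against 24.7% of genes, and at 10 µM 4 were, against 28.9%. PTGER4 and PTGES were past 2-fold on all 3 treatments and PTGS1 on 2 of them, whereas PTGS2 and PTGER2 were so only under DMSO, and PTGR2 and HPGD only on the treated arrays. The median member difference under DMSO was -0.02, against -0.005 over all genes.

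PTGER4, which encodes the EP4 receptor for prostaglandin E2, showed the widest line difference that held on every treatment. Its control-line signals were 8.91 with DMSO, 8.52 at 5 µM and 8.77 at 10 µM, and its Twist-line signals were 12.88, 12.55 and 12.24. The lines did not overlap, and the Twist line was higher by 3.97, 4.03 and 3.47 log2 units. Under DMSO this was 15.7-fold, the 75th largest higher value among 11016 genes above the floor on both arrays. Its other probe set was below the floor on every array and gives no second reading, and with the median signal of both the difference under DMSO was 2.29. PTGER4 encodes a Gs-coupled receptor, as does PTGER2.

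PTGER2, the EP2 receptor gene, was higher in the Twist line only under DMSO by the 2-fold rule. The control-line signals were 7.75, 7.55 and 7.05 in the order DMSO, 5 µM and 10 µM, and the Twist-line signals were 9.07, 7.69 and 7.32. The difference was 1.32 under DMSO, 0.14 at 5 µM and 0.27 at 10 µM. The treated Twist arrays thus lay within the range of the control-line arrays, and the Twist DMSO array stood above all others.

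Other prostanoid receptors, from a list that left out the members, included 2 with a similar line difference. PTGFR, the receptor gene for prostaglandin F2-alpha, was below the floor on all control-line arrays and at 7.77, 7.80 and 7.80 in the Twist line, which puts it higher by at least 4.06 under DMSO. TBXA2R, the thromboxane receptor gene, was at 4.45 on each control-line array and at 8.28, 8.54 and 8.43 in the Twist line. The 3 TBXA2R probe sets above the floor disagreed, with differences from 0.20 to 3.83 under DMSO. Of 5 such receptors measured 2 were past 2-fold higher and 0 lower under DMSO, with a median of 0.05, while PTGER3 and PTGDR stayed below the floor. Over all measured genes 25.4% were past 2-fold in either direction.

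PTGES, which encodes the inducible microsomal prostaglandin E synthase, was lower in the Twist line throughout. Control-line signals were 12.57, 12.21 and 12.35 and Twist-line signals 10.31, 10.22 and 10.28. The 3 Twist arrays lay within 0.09 of each other and far under the lowest control-line array, and the differences were -2.26, -2.00 and -2.07. A second probe set close to the floor was at 4.22 in the control line and below the floor in the Twist line under DMSO, a difference of at most -0.51 in the same direction. PTGES2, encoding another microsomal E synthase, had control-line signals of 6.84, 6.73 and 6.89 and Twist-line signals of 6.46, 6.75 and 6.90. PTGES3, whose product p23 is a cytosolic E synthase and also a co-chaperone of HSP90, had 13.77, 13.85 and 13.90 in the control line, against 13.97, 13.57 and 13.53 in the Twist line. Neither PTGES2 nor PTGES3 reached 2-fold between lines or with the compound.

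The cyclooxygenase genes differed between the lines in opposite directions under DMSO. PTGS1 had control-line signals of 10.31, 10.41 and 10.56 and Twist-line signals of 11.98, 11.55 and 11.43. It was higher in the Twist line by 1.67 with DMSO, 1.14 at 5 µM and 0.87 at 10 µM, so the last value was under 2-fold. All 4 PTGS1 probe sets were higher in the Twist line on each treatment, with differences of 1.06 to 1.67 under DMSO and 0.87 to 1.81 at 10 µM, and the difference of their median signals at 10 µM was 1.56, past 2-fold.

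PTGS2 had 8.04, 8.12 and 7.25 in the control line, against 3.72, 7.33 and 8.24 in the Twist line. The Twist DMSO array, barely above the floor of 3.71, stood apart from the other 5 arrays. Under DMSO the Twist line was lower by 4.32, or 20.0-fold. The difference was -0.80 at 5 µM and 0.99 at 10 µM, so neither treated pair reached 2-fold. The DMSO difference was also -4.32 with the floor at the 35th percentile of all values, 2.89, but it was -2.01 with the floor at the 65th percentile, 6.02, and -1.95 with the median signal of both probe sets.

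**Figure D1:**
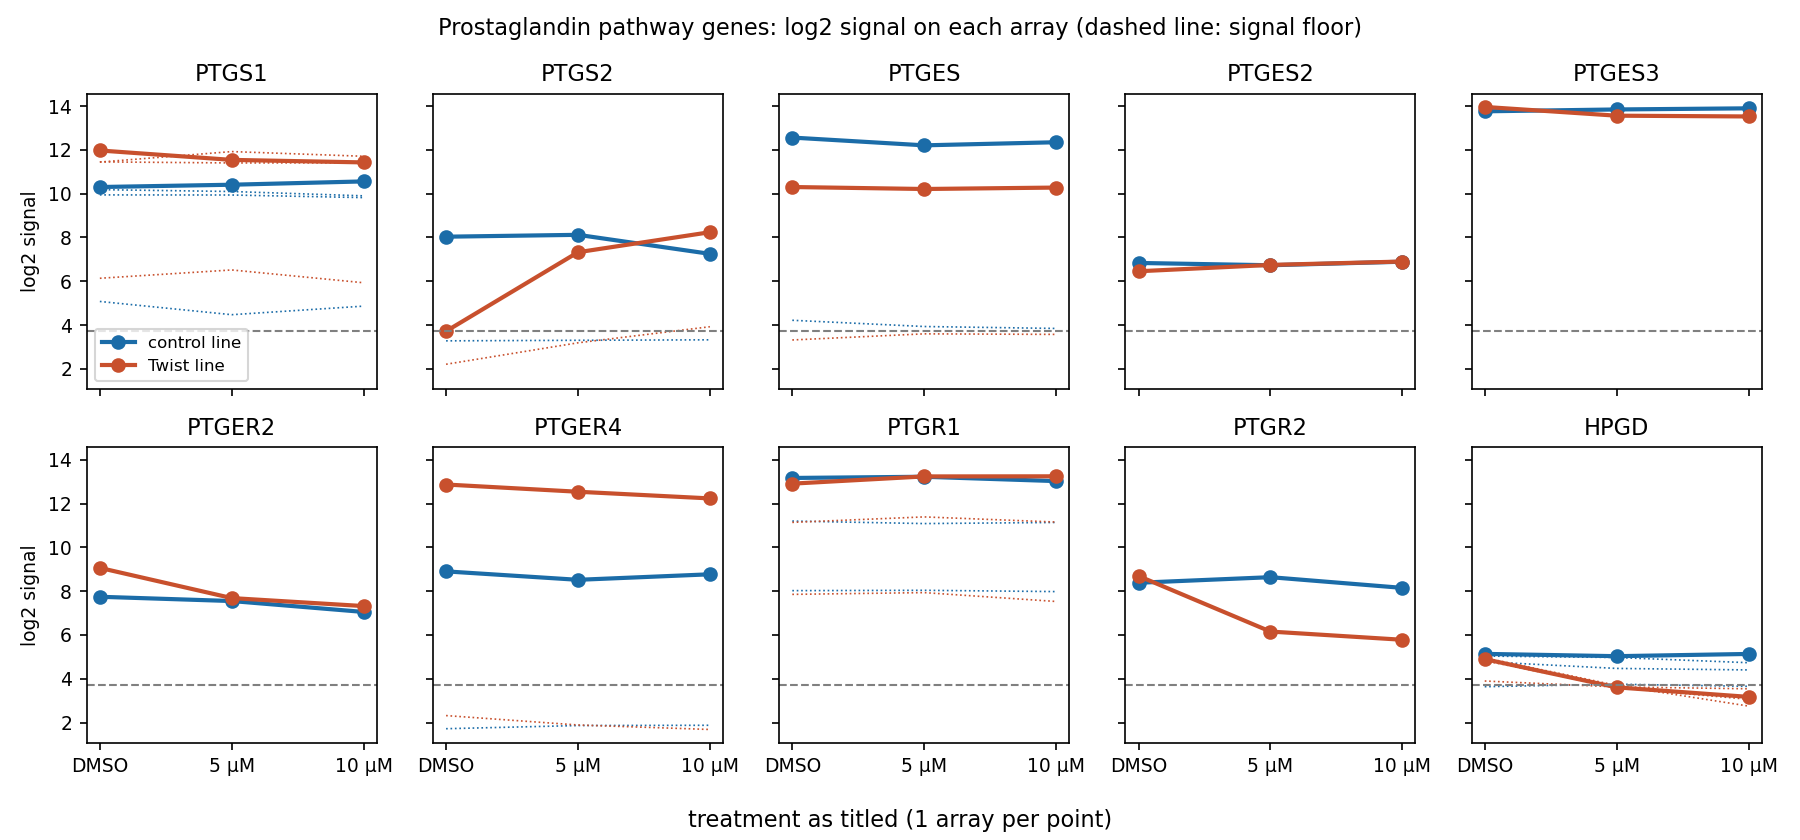
Log2 signal (y axis) of the 10 members on each array, by treatment as titled (x axis), in the control line (blue) and the Twist line (orange). Each point is 1 array, thick lines with points are the brightest probe set, thin dotted lines are other probe sets and the dashed line is the floor at 3.71; PTGER4 and PTGES kept apart between lines on all treatments, and PTGS2 was higher and PTGR2, PTGER2 and HPGD lower on the treated Twist arrays than on the Twist DMSO array.

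Upstream of the cyclooxygenases, PLA2G4A had a line difference of its own. This gene encodes cytosolic phospholipase A2, which frees arachidonic acid, and it is the next protein-coding gene to PTGS2, 148526 bases away in the RefSeq annotation. Its signals were 7.65, 7.82 and 7.31 in the control line, against 3.74, 3.75 and 3.44 in the Twist line, close to or below the floor. The difference under DMSO was -3.91. With Cmp302 in the Twist line PLA2G4A differed from DMSO by 0.01 and by at most -0.03, the latter a bound set by the floor. PTGS2 stood well above the floor on these arrays, and the part of chromosome position in either gene's values was not tested. PDC, the next gene on the other side, was below the floor on all 6 arrays.

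Of 6 measured genes of arachidonic acid release, 2 were past 2-fold higher and 2 lower in the Twist line under DMSO, with a median of -0.09 against -0.005 over all genes. The share of all measured genes past 2-fold in either direction, for this and the next lists, was 25.4%. MGLL, encoding a lipase that also yields arachidonic acid, was higher by 1.33 and ABHD6, another monoacylglycerol lipase gene, by 1.41, with 3 probe sets from 0.45 to 1.41. The secreted phospholipase gene PLA2G12A had a difference of -1.63, with 4 probe sets from -1.63 to -0.60. The lipoxygenase branch, which uses the same substrate, had 0 genes higher and 3 lower of 6 measured, with a median of -0.86. ALOX15B was at 8.47 on the control DMSO array and below the floor in the Twist line, a difference of at most -4.76, and of at most -1.41 on its other probe set. ALOXE3 had at most -1.56 and, on its other probe set, at most -0.34, and LTA4H, encoding leukotriene A4 hydrolase, had -1.45. Other prostanoid synthases had 0 of 3 past 2-fold. PTGDS, HPGDS, PTGIS and TBXAS1, for prostaglandins D2 and I2 and thromboxane, were below the floor on all 6 arrays.

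**Figure D2:**
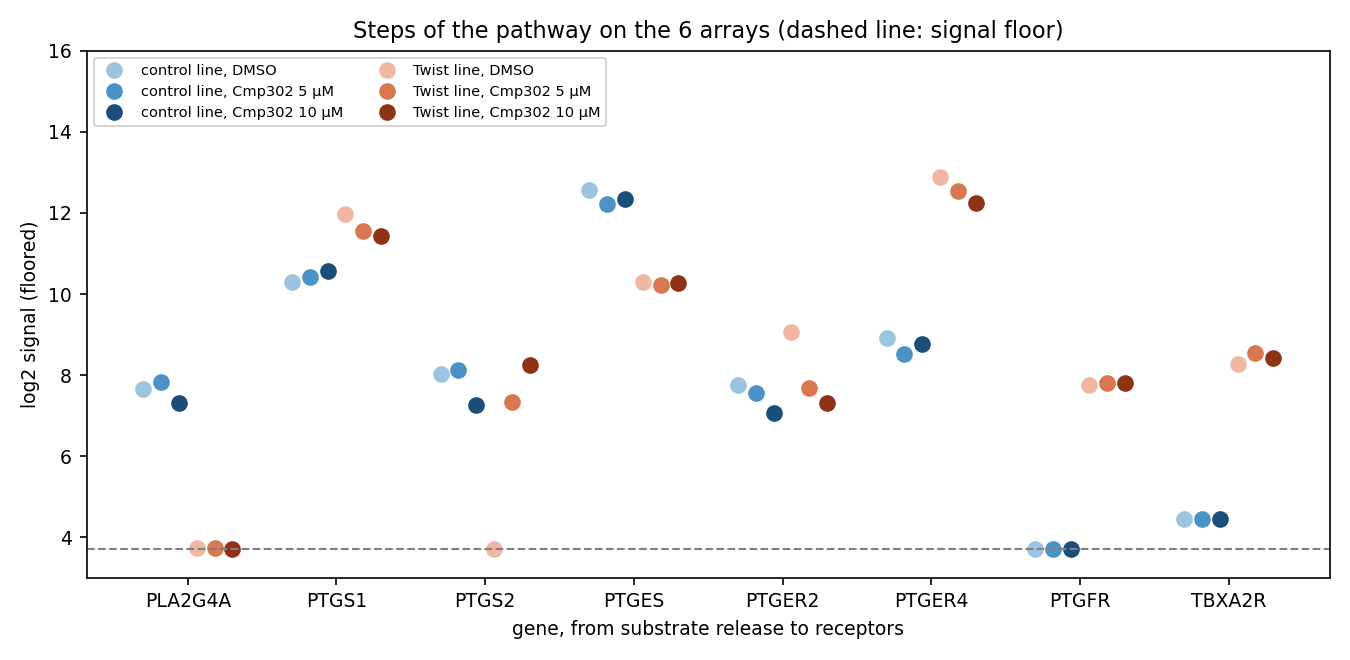
Log2 signal, with values below the floor set to it (y axis), of genes ordered from substrate release to receptors (x axis), 1 point per array, blue shades for the control line and orange shades for the Twist line from DMSO (light) to 10 µM (dark). PLA2G4A lay at or just above the floor (dashed line) on the Twist arrays, PTGS2 on the Twist DMSO array alone, and PTGFR on the control-line arrays; levels of different genes are not comparable.

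The breakdown genes PTGR1, PTGR2 and HPGD did not reach 2-fold between the lines under DMSO. PTGR1, whose product reduces 15-keto-prostaglandins and oxidises leukotriene B4, had signals of 13.18, 13.23 and 13.03 in the control line, against 12.92, 13.25 and 13.25 in the Twist line. Its range over the 6 arrays was 0.34, and its 3 probe sets differed between lines by -0.26 to -0.06 under DMSO. PTGR2 differed by 0.31 under DMSO, and HPGD by -0.24. Both differed by over 2-fold between the lines on the treated arrays.

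The next comparison asked what Cmp302 did to the pathway in each line. In the control line 0 of 10 members were past 2-fold at 5 µM, where 0.125% of 11968 measured genes were, and 0 of 10 at 10 µM, where 0.459% were. The member farthest from DMSO there was PTGS2 at 10 µM, with -0.78, followed by PTGER2 with -0.69. Both lay outside the middle 95% of genes, -0.67 to 0.54, while the other 8 members lay inside it. In the Twist line 4 of 10 members were past 2-fold at 5 µM, against 9.36% of 11868 genes, and the same 4 at 10 µM, against 16.5%. They were PTGS2, which was higher, and PTGR2, PTGER2 and HPGD, which were lower. The median over the 10 members was -0.37 and -0.49 there, against 0.00 and -0.005 over all genes. PTGS2 and PTGR2 were the values known when the members were chosen, so nothing is read from these counts. Of the 4 fibroblast markers, 1 was past 2-fold lower with Cmp302 at 5 µM and 3 at 10 µM in the same line, with COL1A2 at 8.66, 7.72 and 6.71 and DCN at 11.57, 10.75 and 10.12. The mesenchymal markers had 0 of 4 past 2-fold there, and the part of either list in the member values was not tested.

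PTGS2 was higher in the Twist line by 3.61 at 5 µM and 4.53 at 10 µM, which is 12.2-fold and 23.0-fold from a DMSO signal barely above the floor. With the floor at the 65th percentile the 5 µM difference was 1.30, and with the median signal of both its probe sets it was 1.55, each past 2-fold. Its second probe set was below the floor on all arrays but the Twist array at 10 µM, where it had 3.92, after 2.21 with DMSO and 3.19 at 5 µM. That order is the same as in the brighter probe set, but only the last value is above the floor. In the control line the PTGS2 differences were 0.09 and -0.78.

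PTGR2 encodes an enzyme that reduces 15-keto-prostaglandin E2, the product of HPGD. It had 8.39, 8.64 and 8.15 in the control line, against 8.70, 6.16 and 5.78 in the Twist line. The control-line arrays and the Twist DMSO array lay close together, and both treated Twist arrays lay far under them. The difference from DMSO was -2.54 at 5 µM, or 5.82-fold lower, and -2.92 at 10 µM, or 7.54-fold lower. These were the 3rd and the 11th lowest values among genes above the floor on both arrays. In the control line the differences were 0.26 and -0.23.

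PTGR2 rested on a single probe set, whose target transcript could not be placed from the annotation. The other probe sets that the annotation ties to PTGR2 gave other values. They are shared with ZNF410, which lies 1133 bases past the end of PTGR2, and so could not be assigned to 1 gene. One of them had 10.95, 11.01 and 10.74 in the control line, against 10.92, 11.17 and 11.28 in the Twist line, where Cmp302 and DMSO differed by 0.25 and 0.37. The other had 10.79, 11.19 and 11.11 in the control line, against 11.54, 10.84 and 10.92 in the Twist line, the latter a difference of -0.70 and -0.62. Neither shared probe set reached 2-fold against DMSO in either line. As the Twist-line change minus the control-line change, the latter probe set had -1.11 at 5 µM, past 2-fold and in the direction of PTGR2, and -0.94 at 10 µM, and the former had 0.19 and 0.57. On the other side of PTGR2, the brightest probe set of MIDEAS, which encodes a component of a histone deacetylase complex, had differences of -0.88 and -1.05, but another MIDEAS probe set had 0.90 and 0.59.

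**Figure D3:**
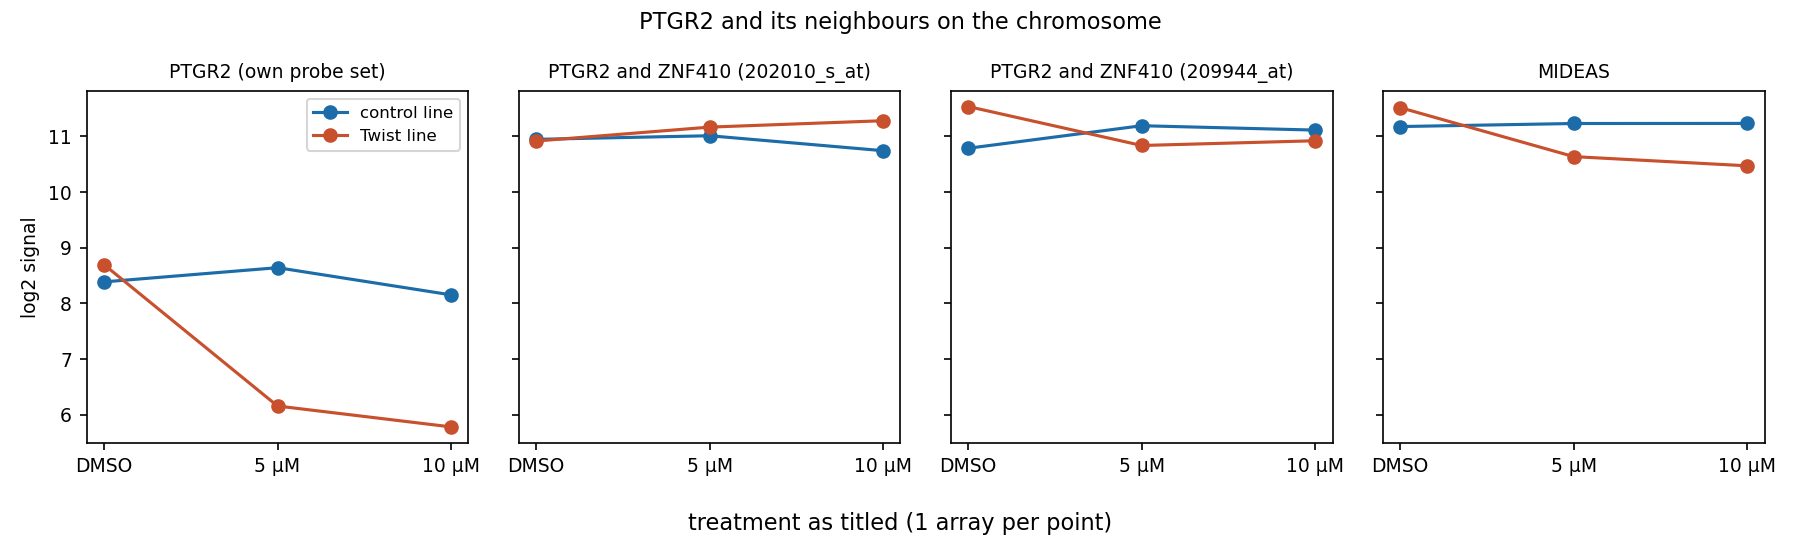
Log2 signal (y axis) by treatment as titled (x axis, 1 array per point) for the PTGR2 probe set, both probe sets shared by PTGR2 and ZNF410, and the brightest MIDEAS probe set, in the control line (blue) and the Twist line (orange). The PTGR2 probe set went from 8.70 to 5.78 in the Twist line, and the shared probe sets stayed between 10.74 and 11.54 over all 6 arrays.

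HPGD, which encodes the first enzyme of prostaglandin E2 inactivation, was dim on all arrays. It had 5.14, 5.03 and 5.13 in the control line and 4.90 in the Twist line with DMSO, and it was below the floor at 3.61 and 3.17 with Cmp302. The treated Twist arrays were the lowest of the 6. The difference was at most -1.19 at both levels, a bound set by the floor, so the levels cannot be told apart. All 4 HPGD probe sets were above the floor on the Twist DMSO array and below it on both treated Twist arrays, with bounds of -1.25 to -0.19. With the floor at the 35th percentile the value at 10 µM was -1.73, and with the floor at the 65th percentile HPGD was not measured.

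PTGER2 was lower by 1.38 at 5 µM and 1.75 at 10 µM in the Twist line on its 1 probe set, a 2.60-fold and a 3.35-fold difference. In the control line its differences were -0.20 and -0.69, in the same direction. PTGER4 had differences of -0.33 and -0.64 in the Twist line and -0.39 and -0.13 in the control line, all under 2-fold. Both EP receptor genes thus had negative differences on all 4 treated arrays, but only PTGER2 in the Twist line was past 2-fold. The cyclooxygenase PTGS1 had -0.43 and -0.55 on its brightest probe set in the Twist line, and the 4 probe sets ranged from -0.43 to 0.48 at 5 µM and from -0.55 to 0.27 at 10 µM, so they do not settle a direction. PTGES had -0.09 and -0.03, and PTGES2, PTGES3 and PTGR1 had values between -0.44 and 0.45. The 3 PTGR1 probe sets ranged from 0.08 to 0.33 at 5 µM and from -0.33 to 0.34 at 10 µM.

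**Figure D4:**
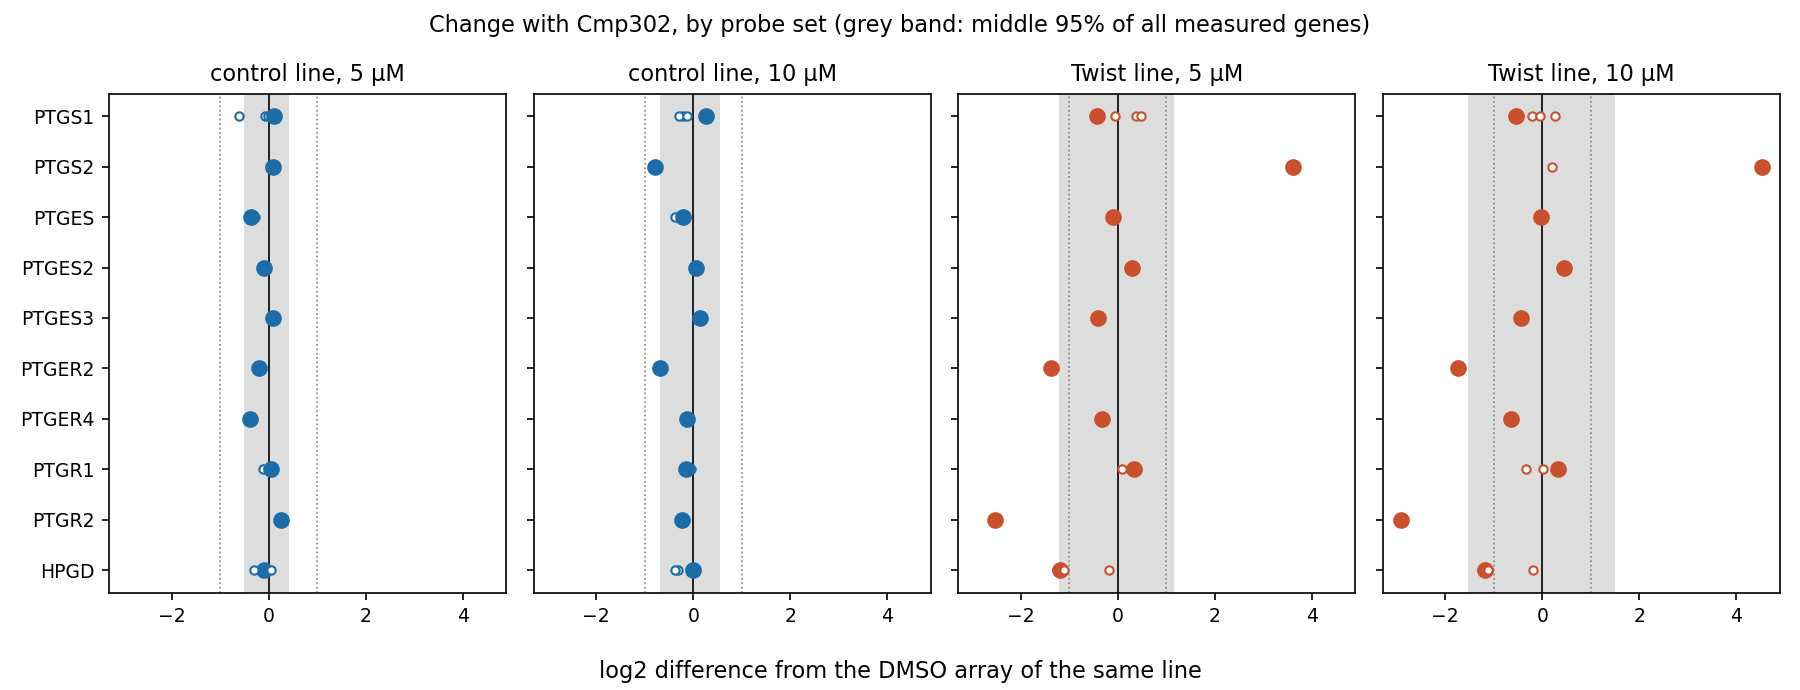
Log2 difference between each Cmp302 array and the DMSO array of the same line (x axis), with values below the floor set to it, for the 10 members (y axis); large filled points are the brightest probe set, small open points the other probe sets above the floor on either array, the grey band the middle 95% of all measured genes and dotted lines the 2-fold limits. In the Twist line PTGS2 stood at 3.61 and 4.53 and PTGR2 at -2.54 and -2.92, while the brightest probe sets of the control line stayed between -0.78 and 0.26.

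The lines were then compared in their response, as the Twist-line change minus the control-line change. At 5 µM 4 of 10 members were past 2-fold, against 15.9% of 12636 genes, and at 10 µM 4 were, against 25.7% of 12688. The Twist-line minus control-line value was 3.53 and 5.31 for PTGS2, -2.80 and -2.68 for PTGR2, -1.19 and -1.05 for PTGER2, and -1.08 and -1.18 for HPGD. The other 6 members had values between -0.80 and 0.48. These values rest on the same DMSO arrays as the changes above and are no separate evidence.

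For GAPDH and ACTB the array carries probe sets near the 3′ end and in the middle of the transcript, and the gap between their signals is a measure of RNA integrity. The mean contrast over both genes was 0.28, 0.45 and 0.84 on the control-line arrays in the order DMSO, 5 µM and 10 µM, and 0.96, 0.36 and 0.45 on the Twist-line arrays. The highest contrast was thus that of the Twist DMSO array, from which every compound difference in that line is taken. The control-line array at 10 µM, with a near contrast of 0.84, had PTGS2 at 7.25 and PTGER2 at 7.05, to be set against 3.72 and 9.07 on the Twist DMSO array. On the 5 µM arrays, whose contrasts were 0.45 and 0.36, PTGR2 was at 8.64 in the control line and 6.16 in the Twist line, and HPGD at 5.03 and below the floor. These arrays come from different lines, and the part of RNA integrity in the member differences was not tested.

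Genes known to act upstream of PTGS2 were read from a list of 13, of which 12 were measured under DMSO. In the Twist line 2 were past 2-fold higher and 4 lower under DMSO, with a median of -0.65 against -0.005 over all genes. Under DMSO 25.4% of all measured genes were past 2-fold in either direction. The genes for the interleukins IL1A and IL1B, which induce PTGS2, were at 10.26 and 9.68 on the control DMSO array and below the floor on the Twist DMSO array, with differences of at most -6.54 and -5.96. Their receptor gene IL1R1 was higher by 2.67, and by 1.54 on its other probe set, and CELF2, encoding a protein that binds PTGS2 mRNA, by at least 4.32, although its 3 probe sets ranged from 0.16 to 4.56. NFKB1 had -1.45 and ZFP36, encoding a protein that speeds mRNA decay, -1.02. With Cmp302 in the Twist line 2 of 12 were past 2-fold higher and 0 lower at both levels on their brightest probe sets. These were the NF-kB subunit genes NFKB1, with 1.49 and 1.90, and RELA, with 1.05 and 1.32 and with 0.71 and 0.66 on its other probe set. Over all measured genes 9.36% and 16.5% were past 2-fold in either direction. The list medians were 0.37 and 0.43, against 0.00 and -0.005 over all genes. Other probe sets of CEBPD, CREB1 and CELF2 were past 2-fold at both levels. They had up to 1.17 and 1.79 for CEBPD, up to 1.53 and 2.02 for CREB1 and down to -2.07 and -2.44 for CELF2. At 10 µM IL1A and IL1B were at 4.58 and 4.62 in the Twist line and at 10.30 and 9.47 in the control line. PTGS2 was at 8.24 and 7.25 on these arrays. The part of the listed genes in the PTGS2 values was not tested.

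Genes of cyclic AMP response and turnover, cyclic AMP being the messenger of the EP2 and EP4 receptors, differed in both directions. Of 8 measured in the Twist line with Cmp302, 0 were past 2-fold higher and 1 lower at 5 µM, and 3 higher and 2 lower at 10 µM. Over all measured genes 9.36% and 16.5% were past 2-fold in either direction. The list medians were 0.16 and 0.36, against 0.00 and -0.005 over all genes. PDE4D, encoding a phosphodiesterase that breaks down cyclic AMP, had 0.95 and 2.02, and its 4 probe sets above the floor gave 1.47 to 2.20 at 10 µM. ADCY7, which encodes an adenylyl cyclase, had -1.07 and -1.16. CREM had -1.16 at 10 µM, with 5 probe sets between -1.16 and 0.24, NR4A3 at least 1.82 and SIK1 1.16. In the control line FOS had -1.30 at 10 µM, the 1 gene of 6 measured past 2-fold there.

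Among reductase relatives of PTGR1 and PTGR2, read by their brightest probe sets, 7 genes were measured. Of these, 1 was past 2-fold higher at 5 µM and 2 at 10 µM in the Twist line, and 0 were lower, with medians of 0.15 and 0.30 against 0.00 and -0.005 over all genes. Over all measured genes 9.36% and 16.5% were past 2-fold there, and 25.4% between lines under DMSO. VAT1 had 1.11 and 1.12, and TP53I3, a p53 target encoding a quinone oxidoreductase, 0.91 and 1.16. PTGR3, which encodes another prostaglandin reductase, had -0.09 and -0.16 on its brightest probe set. Its 7 probe sets disagreed, from -1.01 to 0.17 at 5 µM and from -1.38 to -0.16 at 10 µM, so all 7 were negative at 10 µM and the lowest was past 2-fold at both levels. CRYZL1 was higher in the Twist line by 1.51 under DMSO and TP53I3 had a difference of -1.94. Among 7 HSP90 partners of the PTGES3 product p23, 0 were past 2-fold in either line with Cmp302 or between lines under DMSO, with medians of 0.05 and 0.00 in the treated Twist line.

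Prostaglandin transporters had 0 of 4 measured genes past 2-fold with Cmp302 in the Twist line, where 9.36% and 16.5% of all measured genes were. ABCC4, which exports prostaglandin E2, had -0.66 and -0.82, and its 3 probe sets were negative at both levels. ABCC1 had 0.69 and 0.81, and 0.12 and 0.09 on its other probe set. SLCO2A1, the uptake carrier for prostaglandins, was above the floor on the control DMSO array alone, at 3.79. The genes of arachidonic acid release and of the lipoxygenase branch likewise had 0 past 2-fold with Cmp302 in the Twist line, of 5 and 3 measured by their brightest probe sets. Other probe sets of 2 of these genes were past 2-fold, with up to 1.46 and 1.59 for MGLL and down to -1.27 and -1.21 for PLA2G12A.

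The genes whose signals over the 6 arrays were most like those of each member were found by Pearson correlation among 1923 other genes with a range of at least 2 log2 units. For PTGS2 they were the transporter gene SLC22A15 (r = 0.992), MXD1, encoding a partner of MAX (0.984), the tight junction gene CLDN1 (0.983), the cytokine gene LIF (0.981) and the uridine phosphorylase gene UPP1 (0.980). For PTGR2 they were APAF1, an apoptosome gene (0.992), DHRS4-AS1 (0.991), a probe set annotated to MIR3682 (0.991), NHLRC3 (0.989) and the ubiquitin ligase gene ITCH (0.987). PTGER2 was most like CLMN (0.958), CCDC190 (0.943), TET1 (0.939), OMD (0.931) and ST18 (0.931). For PTGES the 5 genes were SERPINB4, CBLC, CCNJL, ITGB2-AS1 and the integrin gene ITGB4, and for PTGER4 they were REPS2, PRKCA, RASA3, MME and LY6K, with r of 0.999 each. With 6 arrays from 2 lines, a gene that merely differs between lines reaches such values for PTGES and PTGER4. For PTGS2 and PTGER2 the Twist DMSO array stood apart, and for PTGR2 the treated Twist arrays, so r rests largely on these. The arrays also share their lines and treatments.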

How the data were processed

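The authors' deposited table held log2 signals of 54675 probe sets on 6 arrays; the log2 unit was judged from the values, since the labels name none. Per the submitters' processing notes GCOS 1.2 was used, and background correction, summarisation and normalization are not given in the sources used here. After removal of 62 control probe sets, each array was centred on the mean of all arrays by the median difference of the brighter probe sets (shifts of -0.03 to 0.01). Genes were named through the platform annotation, updated by gene ID: 41091 probe sets had 1 symbol, 1801 several and 11721 none. The 9 pathway lists held 85 genes, 80 of them on the array. From each list, genes past 2-fold between lines under DMSO or at both Cmp302 levels were named, at most the 4 widest, besides others named after their values were seen. The members and lists were chosen with earlier results of these data known. The code of the 2-fold rule was checked on simulated arrays without noise, with shifts added to bright genes only. Its recovery was thus fixed in advance, and the check says nothing of the rule's error with 1 array per group or near the floor. No statistical test was run. Python 3.11.15, pandas 2.3.3 and numpy 2.4.6 were used. Alternatives were other scalings and floors, a gene's median probe set signal, and removal of probe sets with cross-hybridisation suffixes.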

Additional observations from a re-analysis of the deposited data

How the results depend on the processing

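Over 9 comparisons, the count of members past 2-fold stayed within 1.5 times its reported value under 5 alternatives, namely no rescaling, quantile normalization, a floor at the 35th percentile, one at the 65th, and a median taken over each gene's probe sets. Leaving out probe sets with the suffixes _x_at and _s_at removed PTGES and HPGD, which have no others, and left 3 of 8 members past 2-fold between lines at 5 µM and 2 of 8 at 10 µM. Of 522 single differences recomputed, 36 moved by more than the SD between the gene's probe sets (or 0.34 for a gene without one), and 0 past 2-fold changed sign. For PTGS2 in the Twist line at 10 µM against DMSO that SD was 3.05. The count could therefore not register a smaller move of that difference. The median over probe sets gave 23 of the 36 moves, from 90 differences, and the 65th and 35th percentile floors 10 and 3. Members with 1 probe set could not move with the median. Quantile normalization and no rescaling each moved 0 of 90, but the latter only undid slight shifts per array. The 72 differences without the suffixed probe sets could not move, since each of the 8 members left kept its brightest probe set. No paired analysis was possible because each group has 1 array and the labels number no replicates. The same lack of replicates leaves no array to omit within a group. Low signal limits the Twist-line Cmp302 differences of HPGD to bounds, and the PTGS2 differences from the Twist DMSO array rest on a signal barely above the floor.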
